A study of Mus musculus with 9 samples.

Results

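Edn1, Edn2 and Edn3, the genes of the 3 endothelin peptides, and Ednra and Ednrb, the genes of their 2 receptors, were read out of a table of 26683 mouse genes as 5 members matched by symbol. The family was chosen by known results of these data, in particular the much higher level of Edn2 in saline-injected than in control retina. Every difference in a member between groups is therefore given as a description. No p-value is printed for a member, and where a member is said to be called or not called (an adjusted p under 0.05 over all genes, by edgeR unless another tool is named), that too is a description. Each of the 9 libraries is bulk RNA-seq of mouse retina, 3 libraries per group. Normoxic libraries came from retina of mice kept in room air. Mice of the PBS group had oxygen-induced retinopathy (OIR) and received phosphate-buffered saline by intravitreal injection on postnatal day 15. In OIR, young mice spend a period in high oxygen, which closes retinal vessels, and the retina is then ischaemic once they are back in room air. Mice of the Gel group had OIR and received the PCC1/PHCF hydrogel, which carries the plant polyphenol procyanidin C1 (PCC1), by the same route on the same day. All retinas were taken on postnatal day 17. No group received hydrogel without PCC1, and the labels do not say that the Normoxic eyes were injected, so the effects of injection, hydrogel and PCC1 cannot be told apart in these comparisons. The labels do not say whether the libraries of a group came from separate animals, so p-values measure only the spread between these libraries, which may be technical.

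Endothelins are short secreted peptides that are cut from longer precursors, first by furin-type proprotein convertases and then by endothelin-converting enzymes. They bind the G protein-coupled receptors ETA, made from Ednra, and ETB, made from Ednrb. ETA on smooth muscle and pericytes constricts vessels, while ETB on endothelium releases relaxing factors and clears the peptide. In the retina, endothelin 2 is known as a signal made by injured photoreceptors, and Müller glia and astrocytes carry ETB. In bulk tissue, fewer cells of a type and less RNA per cell cannot be told apart.

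The coding stretch of the mature peptide is shown for the 3 ligands because their levels are compared below and the peptides act on shared receptors. Each is 63 bases on the plus strand of GRCm38, in exon 2 of a model of 5 exons in GENCODE M21, and encodes 21 residues with 4 cysteines. A script located each by translating the transcript. Edn1 lies at chr13:42303649-42303711, Edn2 at chr4:120161951-120162013 and Edn3 at chr2:174761749-174761811. Capitals mark the bases that differ from Edn1.
Edn1: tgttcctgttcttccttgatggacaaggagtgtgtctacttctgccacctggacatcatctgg
Edn2: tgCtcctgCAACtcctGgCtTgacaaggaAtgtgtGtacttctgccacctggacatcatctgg
Edn3: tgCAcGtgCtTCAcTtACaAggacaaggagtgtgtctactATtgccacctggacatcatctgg
Edn2 differs from Edn1 at 10 bases, and 18 of 21 residues are the same. Edn3 differs from Edn1 at 13 bases, with 15 of 21 residues the same. Most of the differing bases fall in the first part of the stretch. From the codon of the last cysteine to the end, all 3 are the same.

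Promoters from RefSeq (GRCm38.p6; 250 bases before to 50 after the start of the gene) were found for 5 of 5 members. Those of Edn1 and Edn2 are shown because these ligands lay above Normoxic in every library of both OIR groups. The Edn1 window is chr13:42301226-42301525 and the Edn2 window chr4:120160956-120161255, both on the plus strand, with capitals for ACGTG, the core of a hypoxia response element, on either strand.
Edn1 promoter: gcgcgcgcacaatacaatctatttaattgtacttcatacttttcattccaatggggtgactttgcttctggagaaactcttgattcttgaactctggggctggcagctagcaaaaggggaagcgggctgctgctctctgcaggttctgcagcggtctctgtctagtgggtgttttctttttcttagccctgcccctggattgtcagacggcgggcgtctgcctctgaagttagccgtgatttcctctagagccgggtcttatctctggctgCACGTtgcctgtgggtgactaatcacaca
Edn2 promoter: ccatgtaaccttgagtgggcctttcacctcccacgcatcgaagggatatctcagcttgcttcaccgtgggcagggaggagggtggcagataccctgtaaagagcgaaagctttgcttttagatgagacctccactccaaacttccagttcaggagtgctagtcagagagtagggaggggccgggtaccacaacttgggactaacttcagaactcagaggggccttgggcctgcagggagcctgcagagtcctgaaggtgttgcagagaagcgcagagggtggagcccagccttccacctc
ACGTG, searched on both strands and also contained in CACGTG, had 1 match among the 5 members, in Edn1 at position 22 after the start, where the printed strand reads CACGT. It occurs in 19.6% of 32851 promoters of this length. The STAT motif TTCNNNGAA (in 8.3% of promoters) and the AP-1 motif TGANTCA (in 7.81%) had no match in the windows of the 5 members. These matches describe the letters only.

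Library totals ran from 29324142 to 35663470 counts, so 1 CPM (a gene's count divided by the library total, scaled to 1e+06 counts) stood for 29.3 to 35.7 counts. PBS replicate 3 stood apart in its share of ribosomal protein genes, which took 2.69% of its counts against 1.09% to 1.67% in the other 8. Across genes, the log2 fold change ran with gene length, with a Spearman correlation of -0.30 in PBS over Normoxic and 0.32 in Gel over PBS. Edn1, Edn3, Ednra and Ednrb each had their highest level of all 9 libraries in PBS replicate 3, whereas Edn2 had its lowest PBS level there. The part of these library properties in the members' levels was not tested. The members' differences without that library stand in the paragraphs on each gene where they moved.

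Edn2 was nearly absent from Normoxic retina and became the most abundant endothelin transcript after OIR. Its level was 0.0682, 0.215 and 0.229 CPM in the Normoxic libraries (2, 7 and 7 counts). In the PBS libraries it was 55.8, 29.1 and 9.17 CPM, and in the Gel libraries 13.2, 4.46 and 8.69 CPM. All 6 OIR libraries lay above all 3 Normoxic ones, and the Gel range overlapped the PBS range because PBS replicate 3 fell below Gel replicate 1. Spread within the PBS group was the widest of any member: the highest PBS library held 6.08 times the lowest, with a mean of 31.4 ± 23.4 CPM (SD, n = 3).

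The fitted difference in Edn2 between PBS and Normoxic, from edgeR with library scaling, was a log2 fold change of 7.47 ± 0.82 (SE), or 177-fold. The sum of 2931 PBS counts against 16 Normoxic counts gave a ratio of 176 with an exact Poisson 95% interval of 108 to 308, which covers counting error only. Because the Normoxic libraries held so few counts, the size of this ratio is less certain than its direction. Gel exceeded Normoxic by a log2 fold change of 5.64 ± 0.83, or 49.7-fold, with a ratio of summed counts of 49.2 (30.1 to 86.5). That difference was no longer called by limma-voom or without Normoxic replicate 1 or 2. Gel against PBS gave -1.83 ± 0.53, a level 3.56-fold lower that was not called. The Gel to PBS value depended on PBS replicate 1: it was -1.11 without PBS replicate 1 and -2.26 without PBS replicate 3. The PBS to Normoxic difference was 6.74 without PBS replicate 1 and 7.90 without PBS replicate 3.

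Edn1, the endothelin of vascular endothelium, held a low and even level in Normoxic retina. It measured 1.67, 1.75 and 1.89 CPM in Normoxic libraries, 5.61, 2.11 and 7.37 CPM in PBS libraries and 2.26, 2.50 and 4.18 CPM in Gel libraries. Every OIR library lay above every Normoxic one, but PBS replicate 2 was below all 3 Gel libraries, so PBS and Gel overlapped. The log2 fold change was 1.53 ± 0.42 for PBS over Normoxic, 0.76 ± 0.42 for Gel over Normoxic and -0.78 ± 0.40 for Gel over PBS, and none of the 3 was called by edgeR. DESeq2 called the first, as did edgeR with no filter, with a replicate block or with the length trend removed. Leaving out PBS replicate 2 moved the Gel to PBS value to -1.14, and leaving out PBS replicate 3 moved it to -0.35. The PBS to Normoxic difference ranged from 1.11 without PBS replicate 3 to 1.90 without PBS replicate 2, and it was called in the second case.

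Edn3, the ligand with a known role in neural crest development, stayed near the limit of detection. Normoxic libraries held 0.375, 0.431 and 0.0980 CPM (11, 14 and 3 counts), PBS libraries 0.478, 0.784 and 1.58 CPM (15, 23 and 56 counts), and Gel libraries 0.269, 0.224 and 0.267 CPM (8, 8 and 9 counts). PBS libraries lay above both other groups without overlap, while the Gel values fell inside the Normoxic range. The log2 fold change was 1.67 ± 0.58 for PBS over Normoxic, -1.91 ± 0.59 for Gel over PBS and -0.24 ± 0.64 for Gel over Normoxic. Without PBS replicate 3, the first 2 of these became 1.03 and -1.27. None of the 3 log2 fold changes was called by edgeR, DESeq2 or limma-voom. Summed counts were 28 in Normoxic, 94 in PBS and 25 in Gel, and 56 of the PBS counts came from PBS replicate 3. The Gel to PBS ratio of these sums was 0.258 (exact Poisson 95% interval 0.159 to 0.405). That interval covers counting error only, not the spread between libraries.

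Ednra, the gene of the constrictor receptor ETA, had the smallest standard error of the PBS to Normoxic difference among the members. It stood at 2.11, 2.80 and 3.33 CPM in Normoxic, 7.93, 7.67 and 8.78 CPM in PBS and 4.07, 6.62 and 5.07 CPM in Gel. The 3 groups did not overlap: every Gel library lay between the highest Normoxic and the lowest PBS library. PBS exceeded Normoxic by a log2 fold change of 1.57 ± 0.24, or 2.97-fold, and leaving out any single library kept this between 1.41 and 1.74. Gel was 1.54-fold lower than PBS (log2 fold change -0.63 ± 0.23) and 1.93-fold higher than Normoxic (0.95 ± 0.24), neither of which was called by edgeR. The Gel to Normoxic difference was called by DESeq2, and by edgeR without PBS replicate 3.

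Ednrb, the gene of ETB, differed less between groups than Ednra. Its levels were 3.82, 3.54 and 3.23 CPM in Normoxic, 6.28, 4.40 and 7.60 CPM in PBS and 2.86, 7.18 and 4.24 CPM in Gel. PBS lay above Normoxic without overlap, whereas the Gel libraries spanned from below the lowest Normoxic library to nearly the highest PBS library. The log2 fold change was 0.81 ± 0.33 for PBS over Normoxic, -0.36 ± 0.32 for Gel over PBS and 0.45 ± 0.33 for Gel over Normoxic, none of them called. Gel replicate 2 carried much of the Gel mean. Without it the Gel to Normoxic difference was 0.01 and the Gel to PBS difference -0.80, while without Gel replicate 1 they were 0.71 and -0.09. Without PBS replicate 3 the PBS to Normoxic difference was 0.58 and the Gel to PBS difference -0.13.

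**Figure D1:**
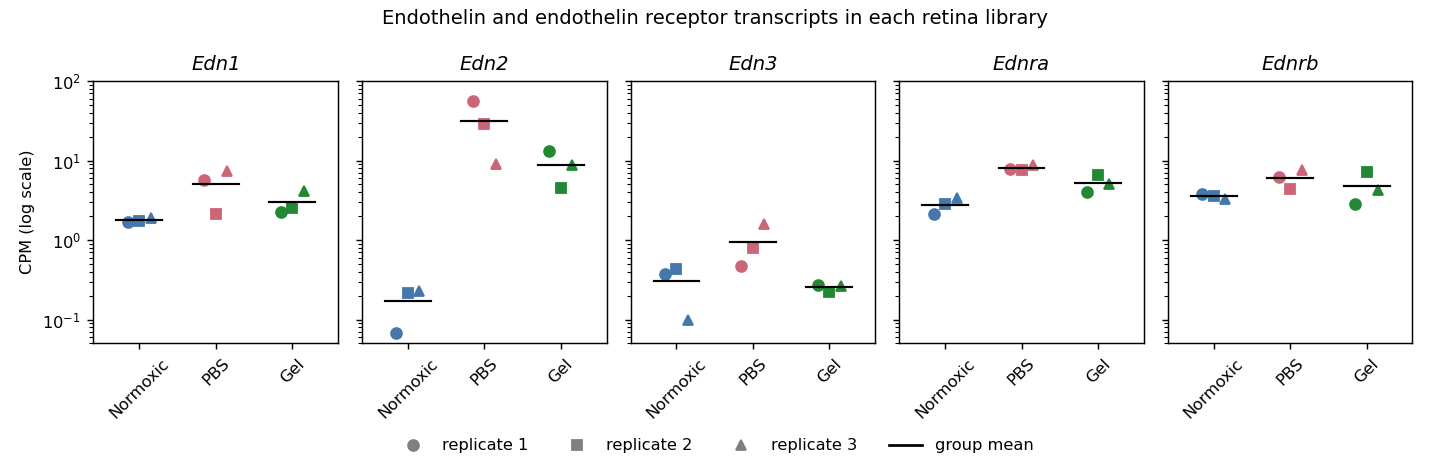
Level of each endothelin and receptor gene in CPM on a log axis, with 1 point per library (n = 3 per group) and a bar at the group mean. Edn2 runs from 0.0682 CPM in a Normoxic library to 55.8 CPM in a PBS library, and Ednra has 3 groups that do not overlap.

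Counted over the family, 2 of 5 members (Edn2 and Ednra) were called higher in PBS than in Normoxic at an edgeR adjusted p under 0.05, beside 4.31% of the 17362 genes tested called higher and 2.03% called lower. All 5 members lay above Normoxic in PBS without overlap, beside 14.9% of all genes. Between Gel and PBS, 0 of 5 members were called by edgeR, DESeq2 or limma-voom, and 3 of 5 had an unadjusted p under 0.05. Over all genes the same comparison gave 0 calls (0%) by edgeR, 0 by limma-voom and 61 by DESeq2, with 961 at an unadjusted p under 0.05. Edn3 and Ednra lay below PBS in Gel without overlap, 2 of 5 beside 5.15% of all genes. Between Gel and Normoxic, 1 of 5 members was called, Edn2 (higher), beside 1.12% of genes called higher and 0.288% called lower. Edn1, Edn2 and Ednra lay above Normoxic in Gel without overlap, 3 of 5 beside 11.1%. The members' median log2 fold change was 1.57 in PBS over Normoxic, -0.78 in Gel over PBS and 0.76 in Gel over Normoxic, where the medians of all genes were 0.01, -0.01 and 0.00. The 3 comparisons share libraries, and the members were selected on the first of them, so nothing is read from these counts. Edn2 passed the filter on low counts only through the OIR libraries, having reached the cutoff in 0 of 3 Normoxic libraries. Edn3 reached it in 2 Normoxic, 3 PBS and 0 Gel libraries. Edn1, Ednra and Ednrb reached it in all 9.

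**Figure D2:**
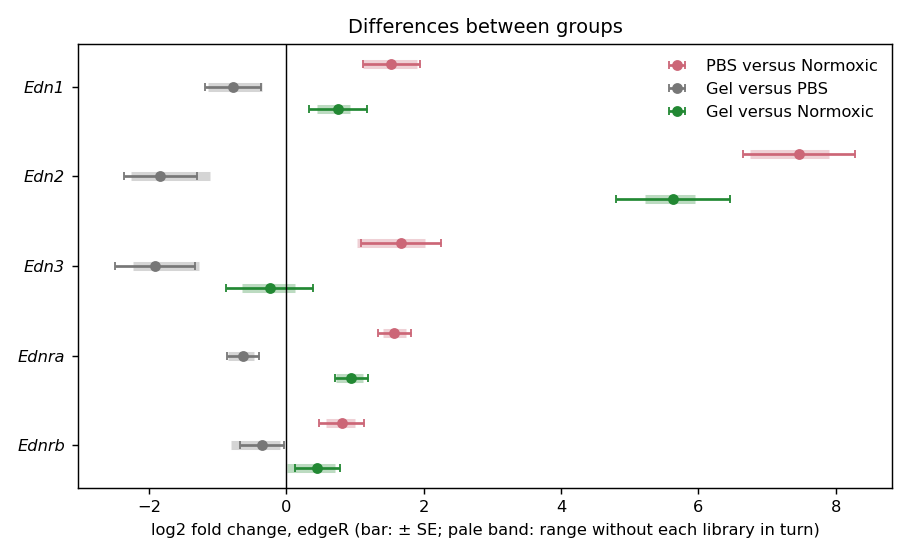
Log2 fold change of each member in the 3 comparisons from the edgeR fit, with bars of 1 SE, a pale band for the range when each library is left out in turn, and a line at 0. Values for Edn2 run from 7.47 in PBS over Normoxic to -1.83 in Gel over PBS, and for Gel over PBS each of the 5 members is below 0.

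Levels of different genes were compared per length, as FPKM (the count scaled by gene length and library total). In Normoxic retina, Edn1 came first at 0.829 ± 0.0528 FPKM (SD, n = 3), followed by Ednra at 0.754 ± 0.168 and Ednrb at 0.620 ± 0.0515. These neighbours overlapped across libraries. Edn2 at 0.117 ± 0.0609 and Edn3 at 0.0967 ± 0.0572 overlapped each other and lay below those 3. In PBS retina the order was Edn2 at 21.4 ± 16.0, Edn1 at 2.35 ± 1.25, Ednra at 2.23 ± 0.159, Ednrb at 1.07 ± 0.283 and Edn3 at 0.303 ± 0.182 FPKM. Of these neighbours, Edn1 and Ednra overlapped and the others did not. In Gel retina Edn2 again came first at 6.01 ± 2.99, above Ednra at 1.44 ± 0.352, Edn1 at 1.39 ± 0.491, Ednrb at 0.836 ± 0.387 and Edn3 at 0.0813 ± 0.00812 FPKM. There, Edn1 overlapped both receptors, and Edn2 and Edn3 overlapped no neighbour.

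The make-up of the ligand pool turned from Edn1 to Edn2. Edn2 formed 4.92%, 13.3% and 14.6% of the summed ligand FPKM in Normoxic libraries, where Edn1 formed 82.4%, 74.2% and 82.5%. In PBS libraries the Edn2 share was 93.2%, 94.1% and 61.4%, and in Gel libraries 88.8%, 71.1% and 74.4%. Every OIR library had an Edn2 share above every Normoxic library, and the 2 OIR groups overlapped. The lowest OIR share was in PBS replicate 3, where Edn1 formed 33.7%. The summed ligand level was 1.04 ± 0.0831 FPKM in Normoxic, 24.1 ± 15.6 in PBS and 7.48 ± 2.97 in Gel. The summed receptor level moved over a smaller range, from 1.37 ± 0.116 in Normoxic to 3.30 ± 0.434 in PBS and 2.28 ± 0.739 FPKM in Gel.

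The balance of receptors leaned further toward Ednra in PBS than in Normoxic retina. The ratio of Ednra to Ednrb FPKM was 0.865, 1.24 and 1.61 in Normoxic libraries, 1.97, 2.72 and 1.81 in PBS libraries and 2.22, 1.44 and 1.87 in Gel libraries. PBS lay above Normoxic without overlap, and Gel overlapped both. These shares and ratios are built from the member values already given and add no independent evidence.

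**Figure D3:**
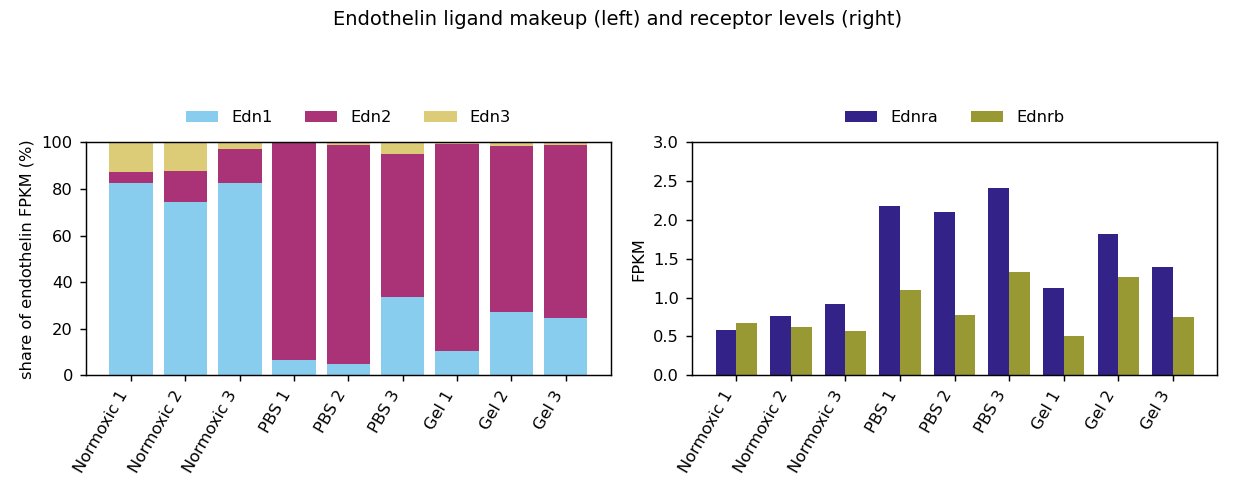
Share of the summed ligand FPKM held by Edn1, Edn2 and Edn3 in each of the 9 libraries, as stacked bars in percent (left), and Ednra and Ednrb level in FPKM as bars (right). Edn1 holds 74.2% to 82.5% in the Normoxic libraries, and Edn2 holds 61.4% to 94.1% in the PBS and 71.1% to 88.8% in the Gel libraries. Ednra stands above Ednrb in every library except Normoxic replicate 1.

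Genes whose pattern over the 9 libraries was most like a member were found by Pearson correlation of log2 CPM, with a prior count of 2, among genes whose mean reached 1 CPM. Because the libraries fall into 3 groups, a gene that differs between groups in the same order scores high. A library order shared with the member restates this choice of genes and is no separate result. For Edn2 they were C4b (r = 0.984), Lpin3 (0.981), Fgf2 (0.981), Lad1 (0.981) and Col4a2 (0.980). C4b encodes complement component C4, whose reads may be shared with the near-identical C4a, and Fgf2 is a growth factor with a known role in photoreceptor survival. Fgf2 stood at 15.2, 14.1 and 12.6 CPM in Normoxic, 121, 68.6 and 53.1 CPM in PBS and 53.5, 40.9 and 49.3 CPM in Gel. As with Edn2, PBS replicate 1 was the highest library and PBS replicate 3 the lowest of its group. For Fgf2 the latter was only just below Gel replicate 1.

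The closest genes to Edn1 were Gper1 (r = 0.983), Pkp2 (0.970), Cela1 (0.969), Alox5ap (0.959) and Cnn3 (0.957), and those to Ednra were Relb (0.996), Ncf1 (0.986), Ehd2 (0.983), Bgn (0.979) and Igfbp5 (0.979). Relb, a subunit of NF-kB, measured 2.59, 2.92 and 3.10 CPM in Normoxic, 4.94, 4.84 and 4.75 CPM in PBS and 3.37, 4.40 and 3.92 CPM in Gel, so like Ednra it had 3 groups without overlap and its highest Gel value in replicate 2. For Ednrb they were Tmem237 (0.994), Mkln1os (0.982), Tmbim6 (0.959), Gulo (0.954) and Lta4h (0.944). Tmem237, a protein of the base of the cilium, had levels of 60.7, 59.6 and 57.1 CPM in Normoxic, 72.0, 64.3 and 72.1 CPM in PBS and 55.9, 71.6 and 61.7 CPM in Gel, with the same low Gel replicate 1 and high Gel replicate 2 as Ednrb. Edn3 was below the level set for this search. No gene stood among the closest 5 of more than 1 member.

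**Figure D4:**
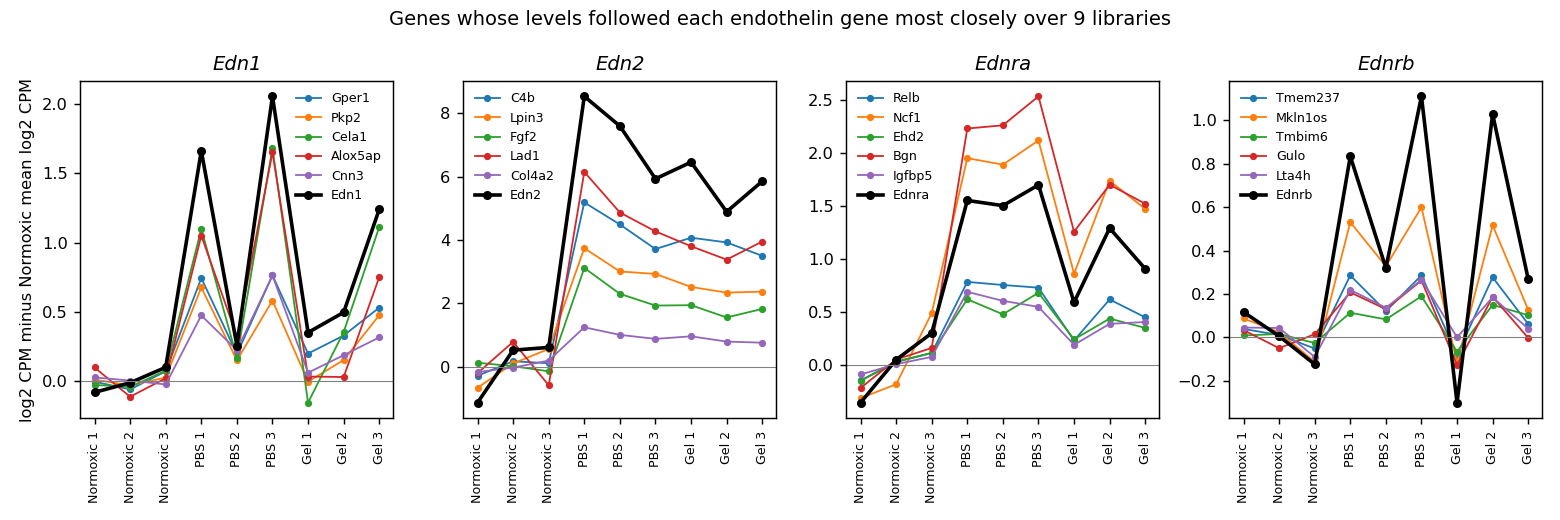
Log2 CPM of Edn1, Edn2, Ednra and Ednrb and of the 5 genes most like each, for each of the 9 libraries, minus each gene's mean over the Normoxic libraries. Lines join the libraries only to guide the eye. Correlations run from 0.980 to 0.984 for Edn2 and from 0.944 to 0.994 for Ednrb.

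Genes listed for endothelin processing and degradation, among them the related peptidase Ecel1, did not move as a group. Of 9 listed, 8 could be tested, and in PBS against Normoxic 1 rose and 2 fell, with a median log2 fold change of -0.19. Ecel1, a peptidase related to the endothelin-converting enzymes that is known as a nerve injury gene, rose by 2.95 ± 0.34 (edgeR adjusted p = 0.000838). It went from 0.512, 0.831 and 0.686 CPM in Normoxic to 7.49, 3.85 and 4.42 CPM in PBS, and stood at 1.21 to 1.75 CPM in Gel, so its 3 groups did not overlap. The peptidases Pcsk5 (-0.84 ± 0.18, adjusted p = 0.0208) and Mmel1 (-0.89 ± 0.22, adjusted p = 0.0375) fell. Leaving out single libraries ended the Mmel1 call (Normoxic 1, 2 or 3, PBS 1 or 2, or Gel 2) and the Pcsk5 call (Normoxic 2 or 3, or PBS 1). The Mmel1 call also ended with a replicate block and with the 2 groups fitted alone, and the Pcsk5 call with the length trend removed. The main converting enzyme Ece1, named here after its values were seen, measured 70.7, 77.9 and 76.6 CPM in Normoxic, 93.7, 94.0 and 69.9 CPM in PBS and 92.8, 84.5 and 80.7 CPM in Gel. Its PBS libraries overlapped the Normoxic ones, with a log2 fold change of 0.20 ± 0.12 and an adjusted p of 0.36.

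Gel against PBS gave 0 calls among these enzymes by edgeR and limma-voom and 1 by DESeq2, with 1 of 8 at an unadjusted p under 0.05. Ecel1 had the smallest edgeR adjusted p, 0.194, at a log2 fold change of -1.85 ± 0.31. Gel against Normoxic also gave 0 calls by edgeR and limma-voom and 1 by DESeq2, with 3 of 8 at an unadjusted p under 0.05. Mmel1 and Ecel1 were nearest there (adjusted p = 0.151 and 0.16).

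Downstream of the receptors, 20 genes (G protein subunits, phospholipases C, calcium release channels, arrestins, G protein regulators, Prkca and Nos3) had a median log2 fold change of 0.05 in PBS over Normoxic. Rgs5, a pericyte-enriched gene that shortens G protein signals, rose by 1.54 ± 0.23 (edgeR adjusted p = 0.00351), and Plcb1, a phospholipase C, fell by 0.90 ± 0.15 on the log2 scale (adjusted p = 0.00537). The remaining 18 were not called by edgeR. DESeq2 called 3 of the 20 and limma-voom 2, and 8 had an unadjusted p under 0.05. Over all 17362 genes tested, DESeq2 called 1936 and limma-voom 1072, and 3711 had an unadjusted p under 0.05. In Gel over PBS, 0 of 20 were called by edgeR or limma-voom and 1 by DESeq2 (2 at an unadjusted p under 0.05), and the same numbers held for Gel over Normoxic. Over all 17362 genes, DESeq2 called 61 in Gel over PBS and 845 in Gel over Normoxic, and limma-voom 0 and 185. At an unadjusted p under 0.05 there were 961 and 2298 genes. These all-gene numbers also stand beside the counts of the other gene lists.

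Other vasoactive peptides and receptors, set beside the endothelins, gave 4 called higher and 0 lower of 24 tested in PBS over Normoxic, with a median log2 fold change of 0.39. Adm, which encodes the vessel-relaxing peptide adrenomedullin, rose by 3.51 ± 0.53 (edgeR adjusted p = 0.00359), and by 2.91 without PBS replicate 1. The vascular peptide gene Apln rose by 2.59 ± 0.35 (adjusted p = 0.00222). Tac1, which encodes substance P, rose by 1.02 ± 0.23 (adjusted p = 0.0235), and Ptgs1, a prostaglandin synthase, by 1.52 ± 0.40 (adjusted p = 0.0494). The Tac1 call ended without any 1 of the Normoxic libraries, and the Ptgs1 call ended with limma-voom and when any library other than Gel replicate 1 was left out. The fitted change of Edn2 was 7.47, but the family was chosen by that difference, so Edn2 is not ranked against these 4. In Gel over PBS, 0 of 24 were called by edgeR or limma-voom and 1 by DESeq2, with 5 at an unadjusted p under 0.05. In Gel over Normoxic, Aplnr, the receptor for apelin, rose by 1.79 ± 0.38 (adjusted p = 0.0483). That call ended with limma-voom and when any Normoxic or Gel library or PBS replicate 2 was left out.

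The glial and photoreceptor injury list is set beside Edn2 because injured photoreceptors are a known source of that peptide. This list, like the others, was chosen with earlier results of these data known, so its counts and p-values are given as a description. Of its 14 genes tested, 10 rose and 0 fell in PBS against Normoxic, with a median log2 fold change of 2.44. Gfap, the intermediate filament of reactive glia, rose by 3.62 ± 0.26 (edgeR adjusted p = 0.000132), Serpina3n, a protease inhibitor of reactive astrocytes, by 4.85 ± 0.41 (adjusted p = 0.000202), and Fgf2 by 2.54 ± 0.26 (adjusted p = 0.00051). Serpina3n was at 4.20 without PBS replicate 1. The summed level of the list was 1311, 732 and 654 CPM in PBS replicates 1, 2 and 3, highest and lowest in the same libraries as Edn2, against 235 to 241 CPM in Normoxic and 508 to 550 CPM in Gel. Not every gene of the list had this order: Gfap stood at 367, 206 and 223 CPM in the PBS libraries, lowest in replicate 2. Lif, a cytokine of injured retina named here after its values were seen, held 4.43, 1.06 and 0.366 CPM in PBS against 0.136 to 0.308 CPM in Normoxic. Replicate 1 was the highest and replicate 3 the lowest PBS library, a description only because Lif was picked with its values known. The log2 fold change of Lif, 3.02 ± 0.83, was not called (edgeR adjusted p = 0.0564).

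In Gel over Normoxic, 7 of the 14 injury genes rose and 0 fell, with a median of 1.81. Lcn2, an iron-binding acute phase protein, rose by 3.64 ± 0.37 (edgeR adjusted p = 0.00138), Gfap by 2.29 ± 0.25 (adjusted p = 0.00187) and Serpina3n by 3.15 ± 0.39 (adjusted p = 0.00403). In Gel over PBS the list median was -0.82. There 0 of 14 were called by edgeR or limma-voom and 4 by DESeq2, with 9 at an unadjusted p under 0.05. Gfap came nearest at -1.33 ± 0.24 (edgeR adjusted p = 0.299).

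Of 16 targets of the hypoxia-inducible factors, 4 rose and 0 fell in PBS against Normoxic, with a median log2 fold change of 0.40. Ndufa4l2, a mitochondrial protein induced by low oxygen, rose by 3.81 ± 0.22 (edgeR adjusted p = 4.53e-05), and Car9, a carbonic anhydrase, by 3.88 ± 0.67 (adjusted p = 0.00691), or 4.76 without Normoxic replicate 1. Car9 averaged only 0.033 CPM in Normoxic and 0.524 CPM in PBS, so the size of its change is less certain than its direction. Adm is also on this list, and Egln3, an oxygen-sensing hydroxylase, rose by 2.03 ± 0.48 (adjusted p = 0.0296), or 1.12 without PBS replicate 1. The Egln3 call ended with limma-voom, with the 2 groups fitted alone and without any 1 of the Normoxic libraries. In Gel against Normoxic Ndufa4l2 rose by 2.61 ± 0.21 (adjusted p = 0.00041), the 1 call of the list, whose median was -0.06. In Gel over PBS the median was -0.58. There 0 of 16 were called by edgeR or limma-voom and 2 by DESeq2, with 13 at an unadjusted p under 0.05.

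**Figure D5:**
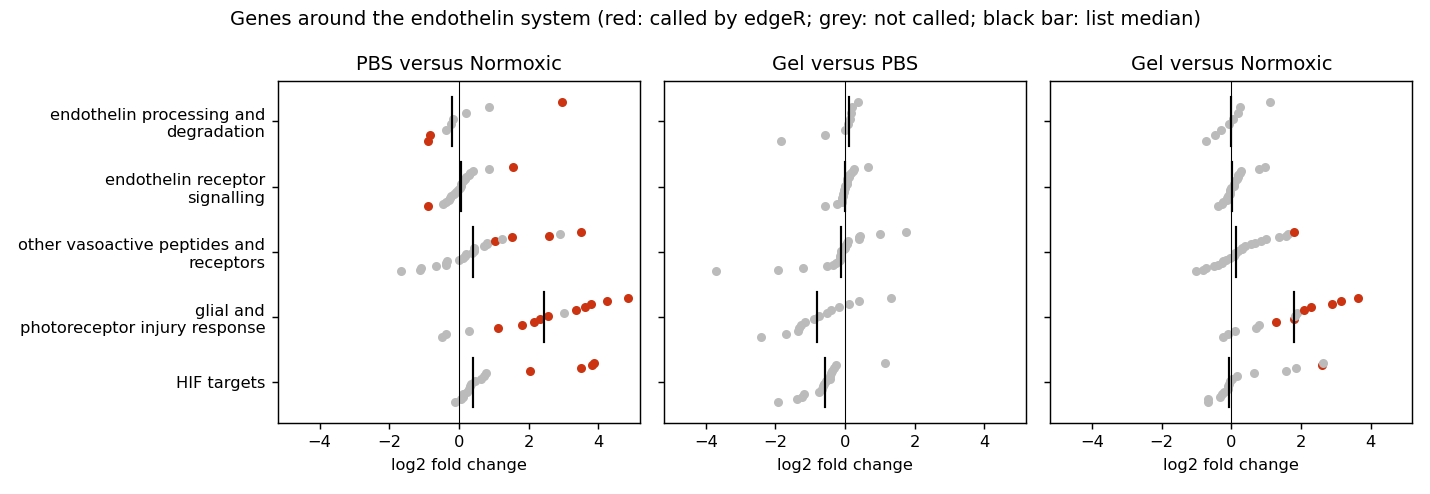
Log2 fold changes of the tested genes in 5 lists (endothelin processing and degradation, receptor signalling, other vasoactive peptides and receptors, glial and photoreceptor injury response, HIF targets) for the 3 comparisons, with 1 point per gene, red where called by edgeR and grey where not, and a bar at the list median. The injury list has medians of 2.44, -0.82 and 1.81 for PBS over Normoxic, Gel over PBS and Gel over Normoxic, and no gene is red for Gel over PBS.

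Marker sums of several cell types differed between groups along with the members. Summed mural cell markers stood at 641 to 711 CPM in Normoxic, 797 to 1112 CPM in PBS and 694 to 903 CPM in Gel. Most of these sums was 1 gene, Vtn, which averaged 597 CPM in Normoxic and 788 CPM in PBS and was not called (edgeR adjusted p = 0.183). The sums therefore mostly follow Vtn and are not read as a measure of mural cells. Of 11 mural markers tested, 5 rose in PBS against Normoxic, the largest being the smooth muscle actin gene Acta2 at 3.43. Endothelial markers summed to 391 to 444, 425 to 490 and 481 to 497 CPM in Normoxic, PBS and Gel, with 6 of 12 higher and 1 lower in PBS. Kdr, the 1 called lower, averaged 199 CPM in Normoxic and 142 CPM in PBS, the most of any gene on this list. Its fall therefore offset part of the other genes' rise in the PBS sums. For astrocyte markers the sums were 119 to 138, 372 to 566 and 212 to 283 CPM in Normoxic, PBS and Gel, with 4 of 6 higher in PBS. Much of that difference was 1 gene, Gfap, which averaged 21.7 CPM in Normoxic and 265 CPM in PBS. Gfap is also on the injury list as a gene of reactive glia, so these sums are not read as a measure of astrocytes. Rod markers, at 58366 to 59894 CPM in Normoxic, 55484 to 75311 CPM in PBS and 53734 to 67524 CPM in Gel, and Müller glia markers, at 4668 to 5170, 4383 to 5533 and 4251 to 5578 CPM, overlapped across the 3 groups. Of the rod markers 0 of 10 were called in PBS against Normoxic by edgeR or limma-voom and 1 by DESeq2 (2 at an unadjusted p under 0.05), and of the Müller glia markers 2 rose and 2 fell. Microglia markers, of which 7 of 10 rose, summed to 63.1 to 71.5, 150 to 229 and 114 to 155 CPM. Red blood cell markers summed to 46.1 to 50.6 CPM in Normoxic, 153, 46.6 and 198 CPM in PBS and 31.3 to 46.1 CPM in Gel, and 1 of 5 tested rose in PBS against Normoxic. Their PBS libraries were high and low in the same replicates as Edn1, with replicate 3 highest and replicate 2 lowest. The rod, cone, mural cell and lens marker sums also had this order in PBS, so it was not particular to blood markers. Horizontal and amacrine markers and ganglion cell markers were lower in PBS than in Normoxic without overlap of their sums. Of the former 3 of 10 fell (1041 to 1236 against 1500 to 1518 CPM), and of the latter 3 of 10 (1615 to 2018 against 2178 to 2362 CPM). The Gel sums, 1182 to 1280 and 1574 to 1990 CPM, also lay below Normoxic without overlap. Cone markers, at 966 to 1218 CPM in Normoxic and 1207 to 1718 CPM in PBS, overlapped, and 0 of 8 were called by edgeR. No marker list had a gene at 0 in every library, and the share of these cell types in the differences of the endothelin genes was not tested.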

How the data were processed

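Bulk RNA-seq of mouse retina was deposited by the authors as 1 table of read counts and 1 of FPKM per gene for 9 libraries, 3 per group. The submitters' processing notes name Bowtie2, RSEM 1.3.1, DESeq2 1.4.5 and GRCm39 without saying what each was used for. The authors' deposited counts are whole numbers, and the deposited FPKM equal count over library total over 1 length per gene. From the counts, edgeR 4.0.16 (R 4.3.3) kept 17362 of 26683 genes (65.1%) with filterByExpr at a minimum count of 10, scaled libraries by TMM and fitted group alone with a quasi-likelihood test on all 9 libraries. P-values were Benjamini-Hochberg adjusted over all genes tested, and a gene was called at an adjusted p under 0.05. CPM are counts divided by the library total and scaled to 1e+06, while log2 fold changes carry the TMM scaling. Fits were tested on simulated data. The members and the gene lists were chosen with earlier results of these data known. Named genes are the members, up to 4 called genes per list and comparison (or up to 2 uncalled), and the 5 genes most like each member. Alternatives were DESeq2 1.42.0, limma-voom (limma 3.58.1), RLE size factors, no filter, the 2 groups alone, a replicate block, the length trend removed and each library left out. Coding and promoter sequences come from GENCODE M21 and RefSeq on GRCm38, which is not the build the notes name, so they are used for sequence only.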

Additional observations from a re-analysis of the deposited data

How the results depend on the processing

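Of 239 values of the 5 members under the alternatives, 228 kept direction and side of the threshold, 7 newly passed it, 3 no longer did and 1 changed sign. Edn1 in PBS over Normoxic was called with no filter, DESeq2, the replicate block, the length trend removed (chosen after seeing the data) and without PBS replicate 2, and Ednra in Gel over Normoxic with DESeq2 and without PBS replicate 3. The Edn2 call in Gel over Normoxic ended with limma-voom and without Normoxic replicate 1 or 2. Edn3 in Gel over Normoxic ranged from -0.65 to 0.12 with libraries left out and was above 0 without Normoxic replicate 2. With the 2 groups alone it had too few counts to be tested. Members called in Gel over Normoxic numbered 1, against 2 with DESeq2, 0 with limma-voom and 0 to 2 with libraries left out. Over all genes, calls in PBS over Normoxic numbered 1101, 1936 with DESeq2 and 455 to 1184 with libraries left out. In Gel over PBS they numbered 0, 24 with no filter, 61 with DESeq2, 3 with the length trend removed and 0 to 12 with libraries left out. In Gel over Normoxic they numbered 245, 389 with no filter, 845 with DESeq2, 643 with the 2 groups alone, 438 with the length trend removed and 47 to 735 with libraries left out, and 79.6% were higher, against 66.6% with DESeq2. The cause of these differences was not tested. Same-numbered libraries correlated at -0.21 to 0.36 over 9 pairs, 2 of them over 0.1, and 4 of 9 libraries correlated best with their own number, so the numbers were not taken to pair the samples. With the replicate block, calls numbered 1050, 0 and 227 in the 3 comparisons. With 3 libraries per group and 2 to 14 counts of Edn2 and Edn3 per Normoxic library, depth limits the size of their fold changes over Normoxic.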
